A study of Homo sapiens with 26 samples.

Results

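Transcripts of 8 E2F transcription factors (E2F1 to E2F8) and of the pocket proteins RB1 and RBL1 were followed across single cell-derived cell lines (SCDCLs) of pancreatic ductal adenocarcinoma. The 10 members were chosen by gene symbol, and all 10 were found among the 41078 genes of the deposited table. Each SCDCL was grown from 1 cell and gave 1 mRNA library, so the 26 libraries hold no replicate of any SCDCL. Of these, 12 are labelled BxPC3, a classical-like line, and 14 are labelled Panc1, a basal-like line, and the labels give gemcitabine as the treatment of all 26. In the methods the drug appears in viability tests and not in the growth of cells for RNA, and neither the name nor the drug response of the SCDCL behind a library was given in the labels.

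E2F proteins bind DNA with a partner of the DP family and control the genes that carry a cell from G1 into S phase. E2F1, E2F2 and E2F3 are the activating members, E2F4 and E2F5 mainly repress genes in resting cells together with pocket proteins, E2F6 represses without binding a pocket protein, and E2F7 and E2F8 bind without a DP partner and lower target genes late in S phase. The pocket proteins RB1, RBL1 (p107) and RBL2 (p130) hold E2F proteins inactive until cyclin-dependent kinases phosphorylate them, and pancreatic cancers commonly loosen this step by losing the kinase inhibitor CDKN2A.

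BxPC3 is known to lack SMAD4, the shared mediator of TGF-beta signals, whereas Panc-1 keeps it. SMAD4 went against a clean division by label, since it lay between 0 and 0.0440 TPM (transcript abundance scaled for length and library) in 5 libraries labelled BxPC3 and 7 labelled Panc1 and between 28.1 and 52.2 TPM in 7 libraries of each label. In bulk libraries, fewer cells expressing a gene and less RNA per cell cannot be told apart. The members are described in 12 libraries with SMAD4 under 1 TPM and 14 libraries with SMAD4 of at least 1 TPM. These groups were formed from a measured level, so differences between them are given as levels and overlap with no test. The 12 libraries also had higher epithelial EPCAM (239 to 424 against 7.49 to 25.47 TPM) and lower mesenchymal VIM (1.42 to 73.2 against 3047 to 4526 TPM). The same list of 6 carcinoma markers was not uniform. CDH1 (medians 135.6 and 2.619 TPM) and KRT19 (1966 and 1220 TPM) were also higher in the 12. The epithelial keratins KRT8 (461.2 and 2053 TPM) and KRT18 (520.6 and 1598 TPM) had their higher median in the 14. All 3 keratins overlapped between the groups. PTPRC, HBB, ALB, INS and PRSS1, markers of blood, liver, islet and acinar cells, reached at most 1.02 TPM in any library, and the endothelial marker PECAM1 reached 6.07 TPM.

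The start regions of the members show which of them carry the letters that E2F proteins are known to bind. RefSeq windows on GRCh38.p14, each running from 250 bases before to 50 bases after a start, were found for 8 of the 10 members, and for 6 of these the window lay at the start of the gene in GENCODE 44. E2F5 and E2F8 had no window. The windows were searched on both strands for 6 forms of the E2F motif, namely TTTCGCGC, TTTGGCGC, TTTCCCGC, TTTGCCGC, TTTCGCGG and TTTGGCGG. At least 1 form lay in the windows of E2F1, E2F2, E2F3 and RBL1 and none in those of E2F4 and E2F7, beside 4.297% of all 35116 promoter windows. The 80 bases just before the start follow for the 4 members with a match and for E2F4, the most abundant member, in lower case from 5′ to 3′ with matches in capitals.
E2F1 (chr20:33686386-33686465, minus strand): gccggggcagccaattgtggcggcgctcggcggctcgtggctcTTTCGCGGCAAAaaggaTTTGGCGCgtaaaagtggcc
E2F2 (chr1:23531234-23531313, minus strand): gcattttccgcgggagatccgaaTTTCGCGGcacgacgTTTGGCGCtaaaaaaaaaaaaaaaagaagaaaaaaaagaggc
E2F3 (chr6:20401799-20401878, plus strand): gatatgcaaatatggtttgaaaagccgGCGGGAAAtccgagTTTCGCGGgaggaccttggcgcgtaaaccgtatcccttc
RBL1 (chr20:37095998-37096077, minus strand): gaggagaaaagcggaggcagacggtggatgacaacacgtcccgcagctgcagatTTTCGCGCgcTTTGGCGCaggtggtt
E2F4 (chr16:67192075-67192154, plus strand): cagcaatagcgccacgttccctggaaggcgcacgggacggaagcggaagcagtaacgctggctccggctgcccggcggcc

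The E2F1 run holds 3 matches, of which TTTCGCGG and the reverse complement of TTTGCCGC overlap, and RBL1 holds TTTCGCGC and TTTGGCGC within the last 26 bases before its start. TTTGGCGC, present before E2F1, E2F2 and RBL1, occurred in 0.652% of all windows, and TTTCGCGC in 0.515%. A match is a run of letters and not evidence of binding, and protein binding was not measured in this series.

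All 10 members were expressed, with a median of at least 1 TPM in both groups. E2F4 was the most abundant member in either group, and E2F2 the least. In the libraries with SMAD4 under 1 TPM the order of the medians was E2F4, RB1, E2F1, RBL1, E2F3, E2F8, E2F7, E2F6, E2F5 and E2F2. Of these neighbours, E2F7 exceeded E2F6 in only 6 of 12 libraries, E2F3 exceeded E2F8 in 9 and RB1 exceeded E2F1 in 11, and each other member exceeded the next in all 12. In the libraries with SMAD4 of at least 1 TPM, E2F6 took the third place, and the order was E2F4, E2F1, E2F6, RB1, E2F3, E2F5, RBL1, E2F8, E2F7 and E2F2. There the closest neighbours were E2F8 and E2F7, with E2F8 higher in 8 of 14 libraries, followed by E2F1 above E2F6 and E2F3 above E2F5 in 10 of 14 each.

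**Figure D1:**
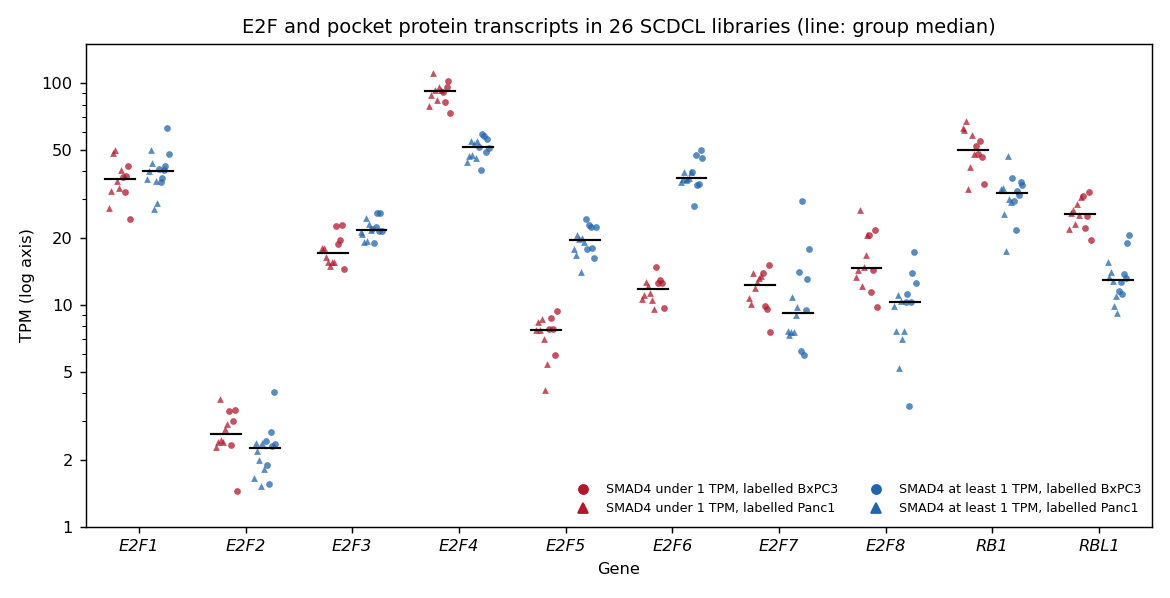
TPM of the 10 members (log axis) in each library, with red points for the 12 libraries with SMAD4 under 1 TPM, blue points for the 14 with at least 1 TPM, circles for the label BxPC3, triangles for Panc1 and a black line for the group median. E2F4, E2F5 and E2F6 show no overlap between red and blue, while the points of E2F1 and E2F2 lie over the same range.

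E2F4, E2F5 and E2F6 were the 3 members whose TPM did not overlap between the SMAD4 groups. This is 3 of 10 members, beside 31.0% of 15246 expressed genes, so the share among the members was near that of all genes. By direction, 1 member was higher with SMAD4 under 1 TPM (15.2% of all genes) and 2 were higher with at least 1 TPM (15.8% of all genes). The median log2 difference over the members was 0.26, against -0.01 over all genes, and the median absolute difference was 0.55 against 0.66. In CPM, which are counts scaled to the library total, with factors from the trimmed mean of M-values (TMM), these 3 members again did not overlap, and RBL1 joined them, which makes 4 of 10 beside 31.9% of the same genes.

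Among the repressor members, E2F4 (ENSG00000205250, GRCh38 chromosome 16, 67192155 to 67198918) ran from 73.3 TPM in library 26 through a median of 92.1 to 110.7 TPM in library 3 with SMAD4 under 1 TPM. With SMAD4 of at least 1 TPM it ran from 40.4 through 51.3 to 58.9 TPM. Every library of the first group was therefore above every library of the second, and the medians differed 1.79-fold. E2F5 (ENSG00000133740, chromosome 8, 85177154 to 85217158), its closest relative, went the other way. It lay at 4.14, 7.74 and 9.35 TPM (lowest, median and highest) in the 12 libraries and at 14.05, 19.54 and 24.37 TPM in the 14, which is 2.52-fold higher with SMAD4 of at least 1 TPM. The mean transcript length assigned to E2F5 also did not overlap, at 1663 to 2275 bases in the 12 libraries and 1378 to 1619 in the 14, and the part of this in the TPM difference was not tested. In CPM, E2F5 lay at 5.51 to 12.9 and 17.2 to 29.9. The counts behind CPM had been remade from TPM, so CPM gives no separate check on length.

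The ratio of E2F5 to E2F4 put both changes in 1 value. Its median was 0.0847 with SMAD4 under 1 TPM, with a highest value of 0.128, and 0.388 with at least 1 TPM, with a lowest value of 0.265. The pair thus stood in different proportion in each of the 26 libraries according to group. E2F4 and E2F5 did not overlap between the groups and went in opposite directions, so their ratio could not overlap either. Its separation restates their levels and is no further finding.

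E2F6 (ENSG00000169016, chromosome 2, 11444375 to 11466177) differed most of the members. It was at 9.61 TPM in its lowest library, 11.7 at the median and 14.8 in its highest with SMAD4 under 1 TPM, and at 27.88, 37.30 and 50.03 TPM with SMAD4 of at least 1 TPM. The medians differed 3.18-fold, and the lowest of the 14 libraries held more E2F6 than the highest of the 12. E2F6 works in the nuclear complex PRC1.6, of which 6 other genes had been listed. PCGF6, the subunit that gives this complex its identity, was at 0 to 0.472 TPM in the 12 libraries and at 11.56 to 23.70 TPM in the 14. MAX, the partner of MGA in DNA binding, went the other way and did not overlap either, at 52.8 to 90.2 against 24.3 to 47.4 TPM. L3MBTL2 (medians 17.9 and 18.7 TPM), MGA (14.59 and 13.45 TPM) and RNF2 (28.5 and 27.3 TPM) overlapped. RING1 ranged from 0.191 to 38.7 TPM and differed between resampled estimates of the same library by an SD of 0.88 (log2), so its level is uncertain. Thus 1 of these 6 genes was higher in each direction without overlap, beside the 15.2% and 15.8% of all genes given above.

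Together these members changed the make-up of the E2F transcript pool. The summed TPM of the 8 E2F genes was alike, with medians of 197 and 190.7 TPM and ranges of 150.1 to 240.1 and 160.0 to 245.9 TPM. E2F4 and E2F5 together held 46.7 to 55.1% of this sum with SMAD4 under 1 TPM and 29.5 to 40.4% with at least 1 TPM. E2F6 held 4.78 to 7.05% and 17.39 to 21.67%. The activators E2F1 to E2F3 held overlapping shares of 26.9 to 33.0% and 27.4 to 37.9%, and E2F7 with E2F8 held 11.52 to 16.96% and 8.12 to 14.8%.

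**Figure D2:**
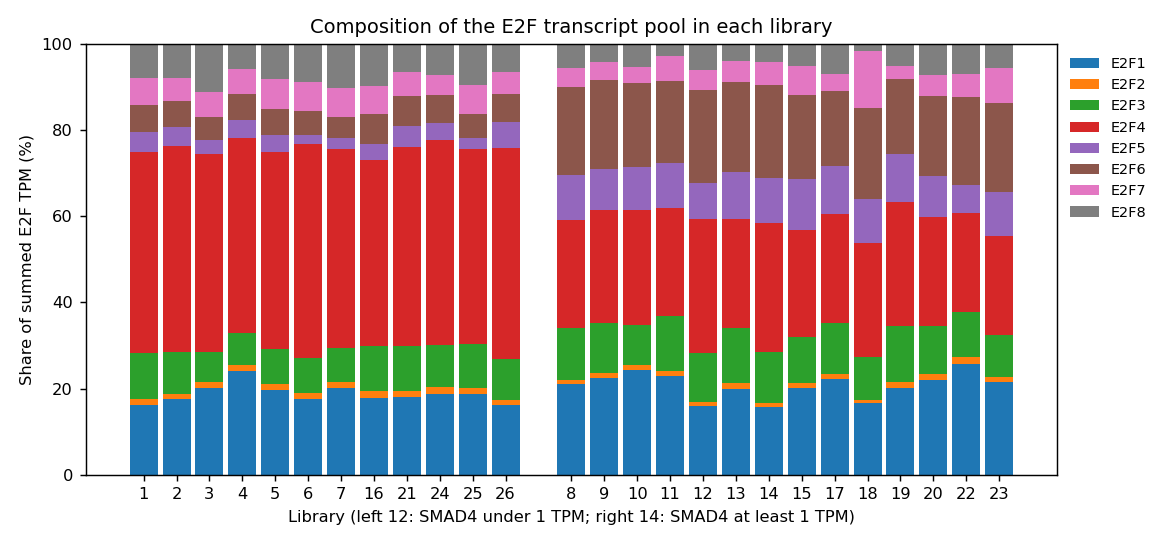
Share of the summed E2F TPM (%) held by each of the 8 E2F genes, 1 stacked bar per library, with the 12 libraries with SMAD4 under 1 TPM on the left and the 14 others on the right. The red E2F4 block falls from a median of 46.13% to 25.38%, while the brown E2F6 block widens from 6.08% to 20.44%.

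The activators overlapped between the SMAD4 groups. E2F1 (ENSG00000101412, chromosome 20, 33675477 to 33686385), a main binding partner of RB1, was at 24.48, 36.99 and 49.89 TPM with SMAD4 under 1 TPM and at 27.0, 40.3 and 63.0 TPM with at least 1 TPM. Its means were 36.9 ± 7.598 (SD, n = 12) and 40.7 ± 9.01 (SD, n = 14) TPM. E2F3 (ENSG00000112242, chromosome 6, 20401879 to 20493714) was at 14.48, 17.19 and 22.84 TPM and at 18.94, 21.71 and 26.003 TPM, and 9 of the 12 libraries lay below all 14 others. E2F3 varied least of the members among the 14 libraries, by 1.37-fold from lowest to highest. E2F2 (ENSG00000007968, chromosome 1, 23506438 to 23531233) was low in both groups, at 1.46, 2.61 and 3.78 TPM and at 1.52, 2.25 and 4.04 TPM. A further identifier, ENSG00000282899, to which the gene tables used here give no symbol, carried the same TPM as E2F2 in all 26 libraries to within 1e-06 TPM. Summed with it, E2F2 reached 2.91 to 7.55 and 3.04 to 8.08 TPM, so the listed level of E2F2 may be that of only part of its reads.

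RBL1 (ENSG00000080839, chromosome 20, 36996349 to 37095997) had a clearer difference than RB1. RBL1 was at 19.597, 25.69 and 32.41 TPM with SMAD4 under 1 TPM and at 9.194, 12.96 and 20.67 TPM with at least 1 TPM, a 1.98-fold difference of medians. All but 1 of the 12 libraries lay above all 14 others, the exception being library 26. RB1 (ENSG00000139687, chromosome 13, 48303744 to 48599436), the retinoblastoma protein gene, was at 33.1, 50.1 and 67.4 TPM and at 17.52, 31.88 and 46.80 TPM, and 8 of 12 libraries lay above all the others. RBL2, the remaining pocket protein, was at 28.9, 46.8 and 82.7 TPM and at 16.78, 24.47 and 29.35 TPM. It differed about as clearly as RBL1, with a 1.91-fold difference of medians and 11 of 12 libraries above all 14 others. All 3 pocket proteins thus had their higher median with SMAD4 under 1 TPM. The 42 expressed genes within 5 Mb of RB1 mostly differed in the same direction, with a median log2 difference of 0.37. Of these, 30 had the higher median with SMAD4 under 1 TPM. Without overlap, 9 were higher in that group, beside 15.2% of all genes, and 0 in the other, beside 15.8%. In TPM, no listed partner separated the groups, since 8 of 8 expressed DP, MuvB and RBL2 genes overlapped. In CPM, RBL2 did not overlap, at 64.6 to 140.1 against 35.5 to 54.6, beside 31.9% of all genes without overlap on that scale. TFDP1, the main DP partner, had medians of 139.6 and 124.1 TPM.

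E2F8 (ENSG00000129173, chromosome 11, 19224063 to 19241620) was at 9.74, 14.64 and 26.67 TPM with SMAD4 under 1 TPM and at 3.49, 10.3 and 17.2 TPM with at least 1 TPM. E2F7 (ENSG00000165891, chromosome 12, 77021248 to 77065569) was at 7.54, 12.3 and 15.2 TPM and at 5.93, 9.24 and 29.5 TPM. Among the 14 libraries these were the most variable members. The SD of log2(TPM + 1) was 0.59 for E2F7 and 0.52 for E2F8, larger than in 89.6% and 85.7% of expressed genes, and highest and lowest library differed 4.97-fold and 4.94-fold. Library 18, labelled BxPC3, held both the highest E2F7, at 29.5 TPM with the next library at 17.9, and the lowest E2F8, at 3.49 TPM with the next at 5.22. In the 12 libraries the same SDs were 0.27 and 0.41.

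The spread of each member over SCDCLs was larger than the error of its estimate. Over the resampled estimates in the deposited table, which hold counting error and the assignment of reads to similar transcripts, the SD of a member was 0.022 to 0.094 (log2), and the SD over libraries was 2.165 to 14.27 times as large. E2F4 was among the steadiest genes in both groups, with a smaller SD in only 7.94% and 7.30% of expressed genes.

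The next question was whether the label separated the members. Each label holds libraries of both SMAD4 groups, so this test compares labels and cannot say whether the BxPC3 and Panc-1 lines differ. Between libraries labelled Panc1 and BxPC3, edgeR's quasi-likelihood test called 0 of 16008 genes (0.0%) at an adjusted p under 0.05, though 367 had an unadjusted p below 0.05, and DESeq2 found only MYH16, which is no member and was named after its value was seen. The log2 difference (Panc1 minus BxPC3) of the members ran from -0.27 for E2F5 (SE 0.28) to 0.17 for RB1 (SE 0.19), and all 10 had an edgeR adjusted p of 1. E2F3 had the lowest unadjusted p, at 0.0900 with a difference of -0.15 (SE 0.087). With the SMAD4 group as a covariate, the same test again called 0, and 1204 had an unadjusted p below 0.05.

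The next comparison asked which members rose and fell together among SCDCLs of 1 group. Pearson's r of log2(TPM + 1) was taken for the 45 pairs of members in each group, with 2-sided permutation p-values (100000 permutations) adjusted over all 90 relations. With SMAD4 under 1 TPM (n = 12), 12 pairs had an adjusted p under 0.05, all with positive r, and 17 had an unadjusted p under 0.05. The strongest joined E2F2 with E2F4 (r = 0.904, permutation p = 7e-05, adjusted p = 0.00315; rho = 0.909, permutation p = 0.00013) and E2F2 with E2F8 (r = 0.900, permutation p = 4e-05, adjusted p = 0.00315; rho = 0.853, permutation p = 0.00084). E2F7 and E2F8, the paired atypical repressors, correlated with r = 0.851 (permutation p = 0.00037, adjusted p = 0.0111; rho = 0.909, permutation p = 7e-05). RBL1 followed E2F7 (r = 0.834, permutation p = 0.00063, adjusted p = 0.0133; rho = 0.825, permutation p = 0.00157) and E2F8 (r = 0.819, permutation p = 0.00132, adjusted p = 0.0133; rho = 0.881, permutation p = 0.00046). E2F1, E2F2, E2F4, E2F7, E2F8 and RBL1 made up 11 of the 12 pairs, and the pair of E2F3 and E2F6 was the other. No pair with RB1 or E2F5 passed. E2F5 had negative r with E2F7 (r = -0.615, permutation p = 0.0317, adjusted p = 0.129; rho = -0.692, permutation p = 0.0154) and with RBL1 (r = -0.524, permutation p = 0.0774, adjusted p = 0.249; rho = -0.601, permutation p = 0.0431), and the latter reached -0.822 without the 2 libraries farthest from the median of E2F5 (adjusted permutation p = 0.0363). For RB1, r with E2F1 was -0.02 (permutation p = 0.944) and with RBL1 0.22 (permutation p = 0.494).

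These correlations depended on the scale. The library-wide factor between TPM and median-of-ratios scaling ran from -0.23 (log2) in library 26 to 0.19 in library 24 among these 12 libraries and from -0.11 to 0.13 among the 14, and mitochondrial genes took 3.82 to 11.9% of TPM in the 12, highest in libraries 21 and 26. In log2(CPM + 1) with TMM factors 3 pairs passed (E2F2 with E2F8, E2F7 with E2F8 and E2F7 with RBL1), and in TPM divided by the median-of-ratios factors, a scale chosen after the data were seen, 1 passed (E2F2 with E2F8, r = 0.856, adjusted permutation p = 0.0216). Without libraries 21 and 26, also chosen afterwards, 2 passed. The median r over the 45 pairs was 0.451 in TPM and 0.167 in CPM, beside 0.120 and 0.014 over all pairs of 12381 expressed genes. An r of at least 0.7 was reached by 12 of 45 member pairs in TPM and by 5 in CPM, beside 4.32% and 2.599% of all pairs of genes. The part of the library-wide factor in these correlations was otherwise not tested. Without the 2 libraries farthest from the median of the first gene, r was 0.783 for E2F2 with E2F4, 0.843 for E2F2 with E2F8, 0.836 for E2F7 with E2F8, 0.796 for E2F7 with RBL1 and 0.919 for E2F8 with RBL1. With values centred on the mean of each label within the group, 10 pairs passed.

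**Figure D3:**
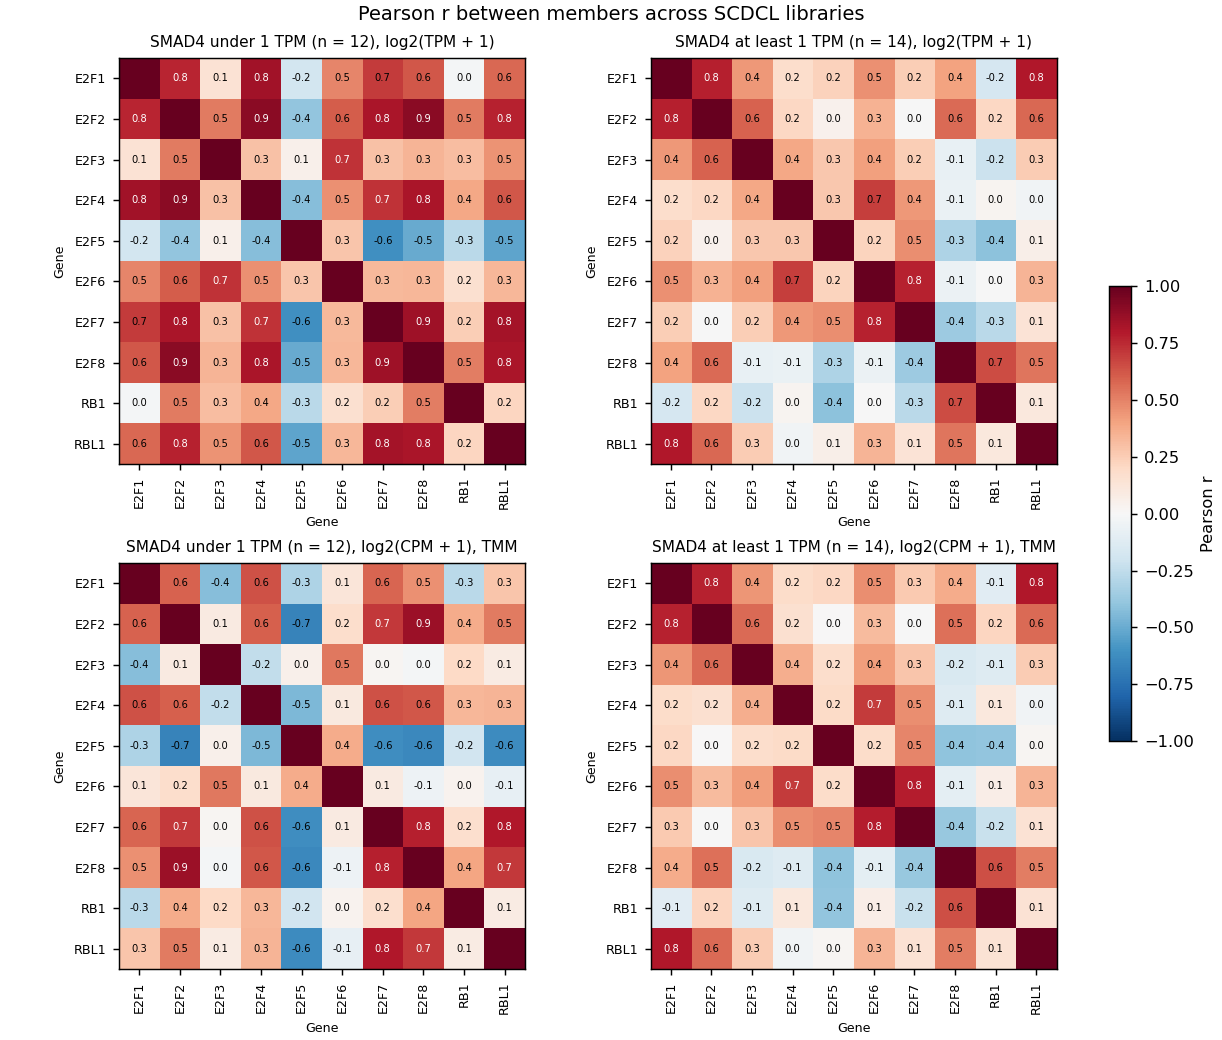
Pearson r between the members over the 12 libraries with SMAD4 under 1 TPM (left) and the 14 with at least 1 TPM (right), in log2(TPM + 1) above and log2(CPM + 1) with TMM factors below, with the colour scale running from -1 (blue) to 1 (red). The red block of E2F1, E2F2, E2F4, E2F7, E2F8 and RBL1 at the upper left is paler in CPM, while the right-hand panels are alike on both scales.

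With SMAD4 of at least 1 TPM (n = 14), 4 pairs passed and all had positive r. E2F1 correlated with RBL1 (r = 0.802, permutation p = 0.00091, adjusted p = 0.0133; rho = 0.741, permutation p = 0.00357) and with E2F2 (r = 0.778, permutation p = 0.00149, adjusted p = 0.0133; rho = 0.574, permutation p = 0.0350). E2F6 correlated with E2F7 (r = 0.773, permutation p = 0.00114, adjusted p = 0.0133; rho = 0.749, permutation p = 0.00264) and with E2F4 (r = 0.690, permutation p = 0.00567, adjusted p = 0.0364; rho = 0.516, permutation p = 0.0608). All but the last pair passed in CPM as well. Without the 2 farthest libraries r fell to 0.457 for E2F1 with E2F2 and to 0.470 for E2F4 with E2F6. It was 0.697 for E2F1 with RBL1 and 0.879 for E2F6 with E2F7, and only the last pair still passed. Leaving out these libraries narrows the range of the first gene, so a lower r does not show that a relation rested on them. E2F7 and E2F8, correlated in the 12 libraries, had r = -0.37 here (permutation p = 0.194), and r = 0.20 (permutation p = 0.524) without library 18. The difference between the groups in this pair was not tested. An r of at least 0.7 was reached by 3 of 45 member pairs, beside 1.04% of all pairs of genes.

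The members were then set against proliferation, taken as the marker MKI67 and as the mean log2(TPM + 1) of 28 listed E2F targets, among them MCM and ORC genes, PCNA, TYMS and CDC6. This gave 40 relations over both groups. E2F8 was the member that followed the targets most closely with SMAD4 under 1 TPM (r = 0.930, permutation p = 2e-05, adjusted p = 0.0008; rho = 0.958, permutation p = 1e-05, the smallest these permutations can give), and r was 0.893 without the 2 libraries farthest from the median of the targets. With SMAD4 of at least 1 TPM, E2F8 again followed the targets (r = 0.726, permutation p = 0.00316, adjusted p = 0.0158; rho = 0.692, permutation p = 0.00748), with r = 0.670 without the 2 farthest. Without library 18, chosen after the data were seen, r was 0.656 and the adjusted permutation p 0.0522, so the call in the 14 libraries was lost. RBL1 did so in both groups (r = 0.831, permutation p = 0.00088, adjusted p = 0.00704, rho = 0.860 with permutation p = 0.00056, and r = 0.772, permutation p = 0.00125, adjusted p = 0.00833, rho = 0.732 with permutation p = 0.00451). E2F2 did so too (r = 0.827, permutation p = 0.00062, adjusted p = 0.0062, rho = 0.811 with permutation p = 0.00198, and r = 0.755, permutation p = 0.00193, adjusted p = 0.0110, rho = 0.613 with permutation p = 0.0225). Without the 2 farthest libraries, r was 0.718 and 0.598 for RBL1 and 0.733 and 0.560 for E2F2. In CPM, E2F2 with SMAD4 under 1 TPM had an adjusted p of 0.0545, while E2F8 and RBL1 passed in both groups. None of these relations in the 14 libraries kept an adjusted permutation p under 0.05 without the 2 farthest.

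E2F7 and E2F4 passed with the targets in the 12 libraries (r = 0.851, permutation p = 0.00055, adjusted p = 0.0062, rho = 0.839 with permutation p = 0.00102, and r = 0.742, permutation p = 0.00553, adjusted p = 0.0221, rho = 0.608 with permutation p = 0.0383), where r of E2F1 was 0.557 (permutation p = 0.0592). E2F1 passed in the 14 libraries (r = 0.829, permutation p = 0.00031, adjusted p = 0.0062; rho = 0.851, permutation p = 0.00026), where r of E2F7 was -0.01 (permutation p = 0.963) and of E2F4 -0.03 (permutation p = 0.925). Without the 2 farthest libraries, r in the 12 libraries was 0.857 for E2F7, 0.734 for E2F4 and 0.796 for E2F1 (permutation p = 0.00552, adjusted p = 0.0736), and r of E2F1 in the 14 was 0.638 (permutation p = 0.0252, adjusted p = 0.126). Whether these members differed between the groups was not tested. With MKI67 itself, E2F1 (r = 0.642, permutation p = 0.0130, adjusted p = 0.0472; rho = 0.631, permutation p = 0.0182) and RBL1 (r = 0.710, permutation p = 0.00453, adjusted p = 0.0201; rho = 0.653, permutation p = 0.0139) passed in the 14 libraries, and r fell to 0.354 and 0.514 without the 2 farthest. Both missed the threshold with Spearman's rho (adjusted permutation p = 0.0606 and 0.0556) and with values centred on the label (adjusted permutation p = 0.127 and 0.0546), and E2F1 also missed it without library 18 (adjusted permutation p = 0.0522) and in CPM (adjusted permutation p = 0.0545). E2F8 with MKI67 missed it with Pearson's r (r = 0.601, permutation p = 0.0219, adjusted p = 0.0675) and passed with rho (0.732, permutation p = 0.00372, adjusted p = 0.0213) and without library 18 (r = 0.807, permutation p = 0.00094, adjusted p = 0.00627). Which members passed with MKI67 in the 14 libraries thus depended on the statistic and on library 18. In the 12 libraries 0 members passed with MKI67, and E2F4 had the lowest unadjusted permutation p (r = 0.669, p = 0.0170). RB1, E2F3, E2F5 and E2F6 passed in neither group with either measure by Pearson's r over all libraries. For RB1 with the targets, r was 0.509 (permutation p = 0.0917) and 0.229 (permutation p = 0.430).

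**Figure D4:**
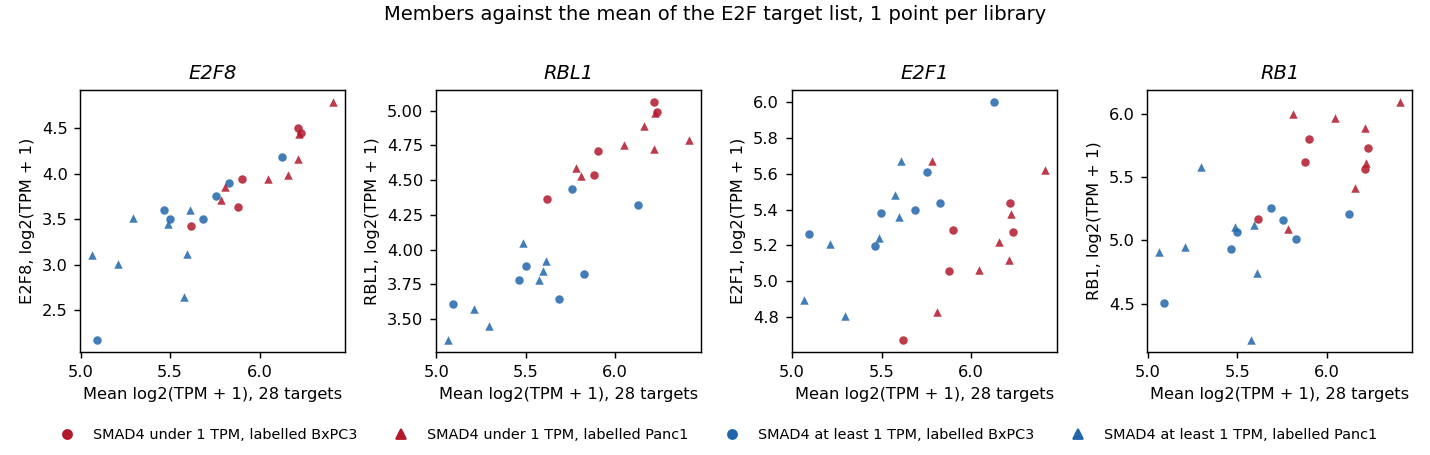
E2F8, RBL1, E2F1 and RB1 in log2(TPM + 1) against the mean log2(TPM + 1) of 28 E2F targets, 1 point per library, with colours for the SMAD4 groups and shapes for the labels. E2F8 rises with the targets in both groups (r = 0.930 and 0.726), and r of RB1 was 0.509 and 0.229, neither past the threshold.

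The mean of the target list lay at 5.62 to 6.41 (log2) in the 12 libraries and at 5.06 to 6.13 in the 14, and the median difference over its 28 genes was 0.63. Without overlap, 4 of the 28 were higher with SMAD4 under 1 TPM, beside 15.2% of all genes, namely CDC45 (medians 68.1 and 27.2 TPM), CDC6 (76.4 and 35.9 TPM), MCM2 (127.3 and 61.0 TPM) and FEN1 (125.1 and 64.4 TPM). RRM2, a subunit of ribonucleotide reductase, was the 1 gene higher with at least 1 TPM without overlap (15.8% of all genes), with medians of 120.8 and 339.2 TPM. MKI67 had its higher median with SMAD4 of at least 1 TPM and overlapped, at 19.53, 42.57 and 65.7 TPM in the 12 libraries and 27.97, 51.9 and 84.0 TPM in the 14. TYMS, which makes thymidylate, had the next largest difference in that direction but overlapped, with medians of 131.7 and 224.3 TPM. CCNA2 had the largest difference of medians in the list (34.8 against 7.58 TPM) but overlapped, and it varied between resampled estimates of the same library by an SD of 2.01 (log2). Leaving it out of the mean left 5 and 6 relations past the threshold, as with it.

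Upstream of the pocket proteins, 7 of 9 listed G1 kinases and inhibitors were expressed. CDK6, which phosphorylates RB1, was higher with SMAD4 under 1 TPM without overlap, at 25.8 to 55.4 against 0.784 to 19.64 TPM. It was the only 1 of the 7 in that direction, beside 15.2% of all genes. In the other direction 0 genes were higher without overlap, beside 15.8% of all genes. CDK4 (medians 193.8 and 187.0 TPM) and CCND1 (178.5 and 178.2 TPM) lay close together. CDKN1B (31.7 and 32.7 TPM) and CDK2 (56.6 and 47.0 TPM) overlapped. CDKN2A was listed at 0 in all 26 libraries, and CDKN1A overlapped with medians of 72.5 and 32.1 TPM.

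For 3 members, the genes with the most similar pattern were taken as those with the highest mean of the within-group r among 12381 genes. Those of E2F1 were ZMYND19 (mean r = 0.893), PSMC3IP (0.852) and BRIP1 (0.802), and those of E2F8 were QSER1 (0.919), NCAPD2 (0.916) and HYLS1 (0.904). Those of RB1 were ESD (0.909), VWA8 (0.908) and ELF1 (0.874), and all 3 lie on chromosome 13, where RB1 lies. This was followed up for each member, with the followed measures chosen after seeing this result. Of the 20 genes most like RB1, all 20 were on chromosome 13, which holds 1.65% of the 11639 other genes with a position, and the same count was found in CPM. Its 42 expressed neighbours within 5 Mb had a median mean r of 0.608 with RB1, against 0.041 for all genes, and the 192 genes of the whole chromosome had 0.616. The pattern therefore covered the chromosome and not only the surroundings of RB1.

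**Figure D5:**
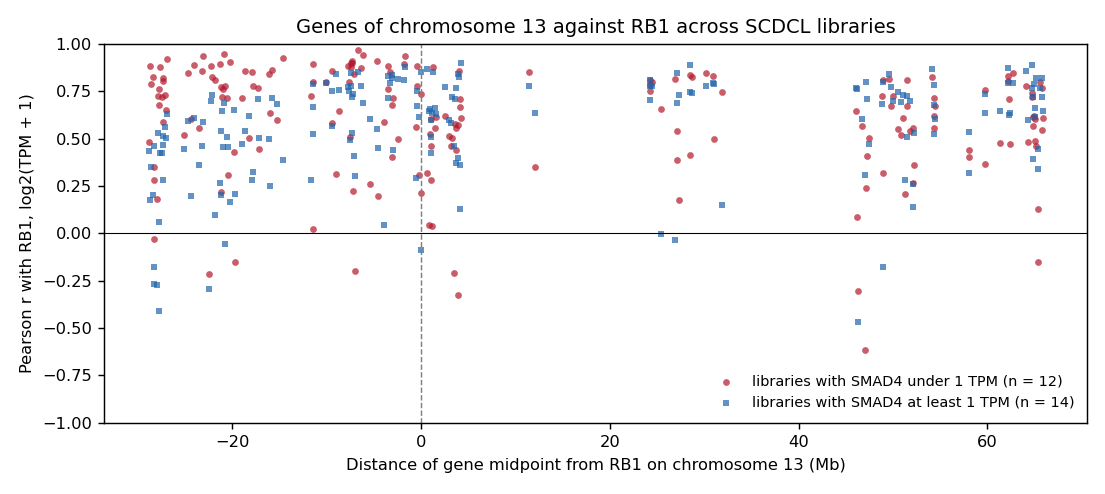
Pearson r of each expressed gene of chromosome 13 with RB1 against its distance from RB1 in Mb, in red circles for the 12 libraries with SMAD4 under 1 TPM and blue squares for the 14 with at least 1 TPM. Most points lie well above 0 along the whole chromosome, and the median mean r was 0.616.

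The libraries at the ends of the RB1 range showed the same shift over the chromosome. Library 11, with the lowest RB1 of all, lay 0.82 (log2 CPM) below its group median for RB1 and 0.67 below it for the median of the 192 other genes of chromosome 13, while the genes of all other chromosomes lay at 0.00. Library 12, with the highest RB1 of the 14, lay 0.63 above for RB1 and 0.48 above for the chromosome. Libraries between these ends did not all follow the chromosome. Library 10 lay 0.29 below for RB1 and 0.05 above for the chromosome, and library 19 lay 0.01 above and 0.26 below. In the 12 libraries, library 4 lay 0.53 below for RB1 and 0.28 below for the chromosome, and libraries 1, 2, 3 and 6 lay 0.38 to 0.45 above for RB1 and 0.29 to 0.42 above for the chromosome. DNA copy number was not measured, and its part in the RB1 level was not tested.

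Of the 20 genes most like E2F8, 8 were on chromosome 11, which holds 5.83% of the genes, and the same count was found in CPM. QSER1 and HYLS1 were among them. In library 18, where E2F8 was lowest, the 678 other genes of chromosome 11 lay 0.51 below their group medians, the lowest value of any library, and E2F8 lay 1.37 below. Library 11, second lowest in E2F8 among the 14, was also second lowest for the chromosome, with E2F8 at -0.93 and the chromosome at -0.205. In library 22, with the highest E2F8 of the 14, E2F8 lay 0.73 above while the chromosome lay at -0.04. In the 12 libraries the chromosome stayed between -0.08 and 0.04 while E2F8 ran from -0.39 to 0.73. The part of DNA copy number in the E2F8 level was not tested either. For the other 8 members, 0 to 4 of the 20 most similar genes were on the same chromosome, with 4 for E2F3.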

How the data were processed

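Polyadenylated, strand-specific libraries of 26 SCDCLs were assigned by the authors to transcripts of GRCh38 (Ensembl release 103) with kallisto 0.46.1. The authors deposited TPM and estimated counts per gene, the latter remade from TPM and mean transcript length (tximport), with resampled estimated counts, of which 3 per library were used. Totals ranged from 27035724 to 34945608 estimated counts (median 29623513), which limits low genes, and no pair of libraries agreed within counting noise (closest pair 44.5 times the counting variance). Of the 41078 identifiers, 36315 were matched to a symbol in GENCODE 44. CPM was computed with TMM factors. Values were compared as log2(value + 1).

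SMAD4 groups were formed by a limit of 1 TPM and described by medians and overlap, over genes with a median of at least 1 TPM in a group. Labels were compared on rounded counts with edgeR 4.0.16 (quasi-likelihood, filterByExpr, Benjamini-Hochberg), and with DESeq2 1.42.0 and limma 3.58.1 (R 4.3.3). Correlations used permutation tests in Python 3.11.15 (scipy 1.17.1, numpy 2.4.6, pandas 2.3.3). Steps were tested on simulated data. The paper describes each SCDCL as its own culture, with times to confluency that differed. Each gave only 1 library, so p-values measure the spread between these SCDCLs and not between repeated cultures of 1 SCDCL.

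Members, lists and the rule for named genes (all members, SMAD4, the genes of each list with the largest differences, and the 3 genes most like E2F1, E2F8 and RB1) were chosen with earlier results of these data known. Further genes of the lists were named after their values were seen. Alternatives were size factors, filters, tools, the SMAD4 group as covariate, pseudocount 0.1, Spearman's rho, values centred on labels, each label alone and libraries left out. Motif counts used the RefSeq promoter table of GRCh38.p14.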

Additional observations from a re-analysis of the deposited data

Results flagged for a closer look

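Among 40 comparisons of a member within a label and SMAD4 group, 1 library stood far from the rest. E2F2 was at 3.78 TPM in library 3, labelled Panc1 with SMAD4 under 1 TPM, against 2.92 TPM in the nearest of the 7 libraries, a gap of 0.579 of the whole range. Chance alone sets about 1 in 20 such groups apart. The same library held the highest E2F4, E2F8 and RB1 of the 12 libraries with SMAD4 under 1 TPM, at 110.7, 26.7 and 67.4 TPM.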

How the results depend on the processing

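Between labels, DESeq2 called 1 gene where edgeR called 0, and the count was 0 without any 1 library. The groups share no replicate number, so no paired analysis was possible because the labels pair no libraries. With SMAD4 under 1 TPM, 12 correlated pairs of members became 3 in CPM, 7 with Spearman's rho, 7 without the 2 farthest libraries (5 of the 12 and 2 others, 1 of them negative), 1 in TPM over median-of-ratios factors and 2 without libraries 21 and 26. With SMAD4 of at least 1 TPM, 4 became 2 with Spearman's rho and 1 without the 2 farthest. Relations with MKI67 or the targets went from 5 to 2 without the 2 farthest, 3 over median-of-ratios factors and 1 without libraries 21 and 26, and from 6 to 0 without the 2 farthest in the 14 libraries, where 3 had an unadjusted permutation p under 0.05. Leaving out libraries lowers the number tested, and the cause of the other changes was not tested. The median-of-ratios scale, the removal of libraries 18, 21 and 26 and the target mean without CCNA2 were chosen after seeing the data. When single correlations past the threshold were recalculated under these settings, 119 values stayed past it, and 79 kept their sign and missed it, by the adjusted permutation p. Of the recalculated differences of medians, 59 moved by less than the spread between libraries, but the log2 difference of E2F7 between the SMAD4 groups, 0.38, was -0.37 in the libraries labelled BxPC3 alone. Those of E2F4, E2F5, E2F6 and RBL1 stayed within 0.74 to 0.96, -1.41 to -1.22, -1.66 to -1.59 and 0.89 to 0.98.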
